A study of Canis lupus familiaris with 6 samples.

Results

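The genes described here are the core genes of Wnt signaling in CPEK cells, a canine epidermal keratinocyte line. Their rule uses gene symbols only and no measured value. The choice took every WNT ligand, every FZD (Frizzled) receptor, the antagonists with a DKK or SFRP symbol, DVL1 to DVL3, the co-receptors LRP5 and LRP6, AXIN1, AXIN2, APC, CTNNB1, LEF1, TCF7, TCF7L1 and TCF7L2. This gave 50 of the 35993 genes in the deposited table, made up of 19 ligands, 10 Frizzled receptors, 2 co-receptors, 8 secreted antagonists, 3 Dishevelled proteins, 3 scaffold proteins, beta-catenin itself and 4 TCF/LEF transcription factors.

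All 6 libraries came from CPEK cells of the wild-type genotype, 1 cell line grown with serum, so they speak for that line only. Cells of the dCAMP group (3 libraries) were exposed directly to cold atmospheric microwave plasma, an ionized gas at low temperature, for 30 s. Cells of the gas control (3 libraries) were exposed to the gas without plasma. In both groups the medium was renewed 15 min later and RNA was taken after a further 24 h, and the question was which genes differed between dCAMP and gas.

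Wnt ligands are secreted glycoproteins that bind a Frizzled receptor together with LRP5 or LRP6. Without a ligand, a complex built on AXIN and APC marks beta-catenin for destruction. Ligand binding recruits Dishevelled, blocks that complex and lets beta-catenin enter the nucleus, where it works with TCF/LEF factors on target genes such as AXIN2. Some ligands, WNT5A among them, also signal without beta-catenin. In skin the pathway is known for its part in hair follicle formation and in the upkeep of the epidermal stem cells, and beta-catenin is also a structural part of the adherens junction.

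Between 43084921 and 54082634 counts were assigned to genes in each library. The gas libraries differed more among themselves than the dCAMP libraries did. Compared pairwise, their counts gave a chi-square per degree of freedom of 85.42 to 317.71, against 6.5 to 10.15 for pairs of dCAMP libraries. In a principal component analysis of log2 CPM, the leading component (71.2% of the variance) placed gas 1 at -94.1, gas 2 at -23 and gas 3 at 21.7, beside 28.6 to 33.6 for the dCAMP libraries. The results below are therefore also given without gas 1 or without gas 3. All 12 keratinocyte markers examined were expressed. Their summed level was 54500 to 65200 CPM (counts scaled to a normalized library of fixed size) in gas and 51400 to 54600 in dCAMP, and 5 of the 12 had an unadjusted p under 0.05 (20.7% of all genes tested did): KRT5, KRT14 and SFN were lower and DSG3 and PERP higher in dCAMP. Markers of other cells were lower by far, though not all absent. The 8 fibroblast markers summed to 6.6 to 7.02 CPM in gas and 6.51 to 7.1 in dCAMP, with DCN, LUM and PDGFRB at 0. The 6 melanocyte markers summed to 0.735 to 2.2 and 0.604 to 2.43, with TYR, TYRP1 and DCT at 0. Their ranges followed SOX10, which had 63, 73 and 0 counts in gas and 0, 0 and 72 in dCAMP. PMEL had 35, 24 and 39 counts in gas and 15, 13 and 27 in dCAMP, and MLANA 4, 0 and 0 in gas and 13, 16 and 11 in dCAMP. In the other lists dCAMP lay above gas. The 5 endothelial markers summed to 15.7 to 18.4 and 18.8 to 24.7, with PECAM1 at 0 and most of the sum from VWF (11.5 to 18.6 CPM), and the 6 leukocyte markers to 2.85 to 3.67 and 4.25 to 4.6, with PTPRC and the other markers apart from ITGAM at 0. An unadjusted p under 0.05 was found for 1 of 4 fibroblast markers tested (COL1A1, lower), 1 of 3 melanocyte markers (MLANA, higher), 2 of 3 endothelial markers (CDH5 and KDR, higher) and the 1 leukocyte marker tested (ITGAM, higher). What part these markers had in the results was not tested.

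Counts were found for 44 of the 50 members, and 24 had a mean FPKM (fragments scaled to transcript length and to mapped reads, the deposited unit in which genes can be compared) of at least 1. WNT1, WNT8B, WNT10B, DKK4, SFRP2 and SFRP5 had no count in any library, which allows up to 3 counts in each. Another 8 members had so few counts that they did not pass the filter on low counts, namely WNT3, WNT6, WNT8A, WNT9B, WNT11, WNT16, DKK2 and SFRP4, and 36 were tested. The 50 members spanned the whole range from no count to 214 FPKM, the mean of CTNNB1.

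**Figure D1:**
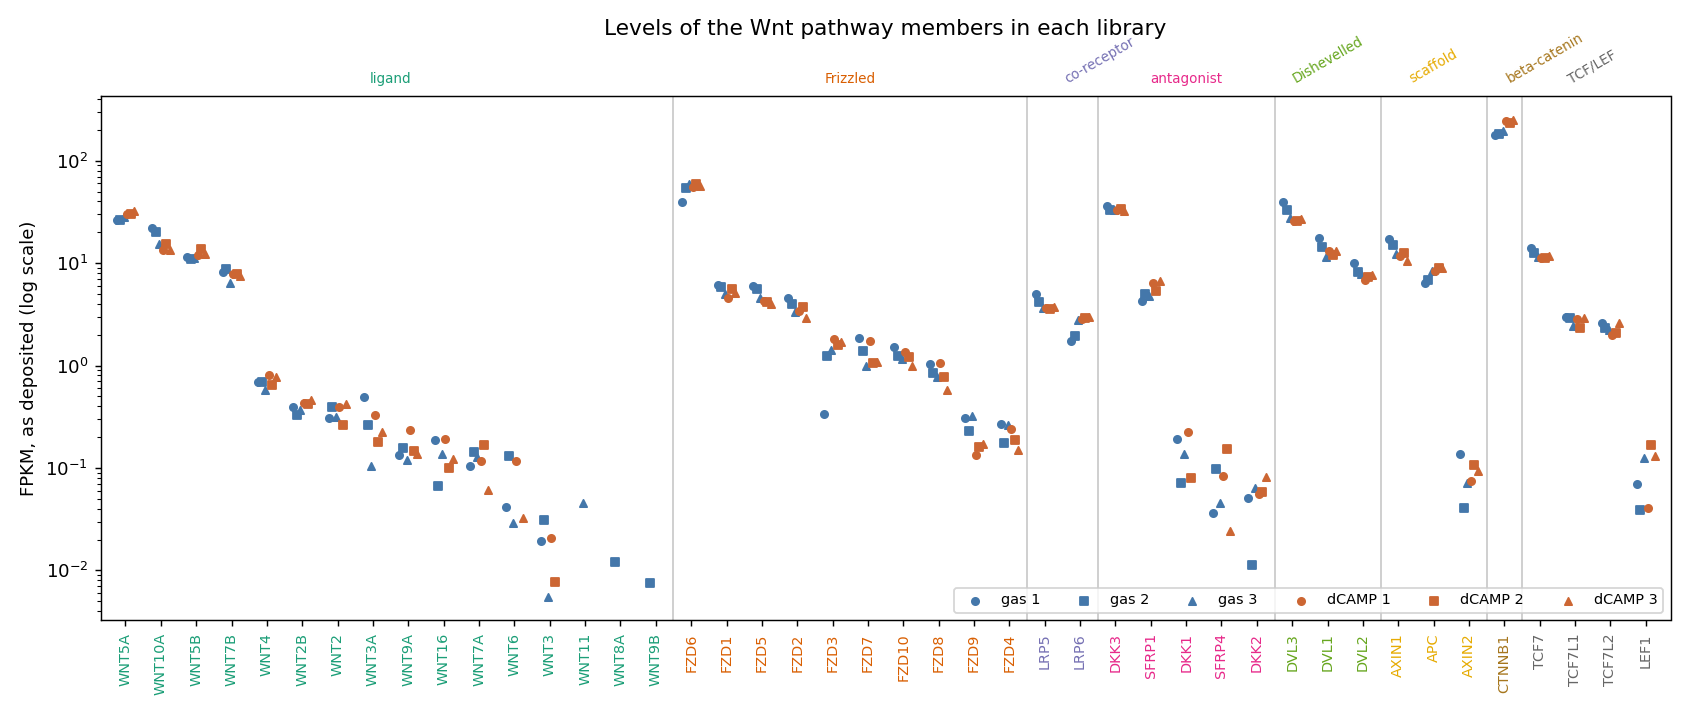
FPKM of the 44 Wnt pathway members with a count, on a log scale, with 1 point per library and members grouped by role; a library listed at 0 has no point. CTNNB1, at 179 to 248 FPKM, stands above all other members, and WNT5A, WNT10A, WNT5B and WNT7B stand apart from the other ligands in every library.

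No member passed the test. None of the 36 had an adjusted p under 0.05 by the quasi-likelihood test of edgeR, Benjamini-Hochberg adjusted over 14708 genes, and neither did any other gene (0.0%). DESeq2 on all genes with a count gave 1 of 44 members, CTNNB1, an adjusted p under 0.05, beside 1.48% of all genes. None changed at least 2-fold with an unadjusted p under 0.05 either, a rule that 1.09% of all genes tested met. An unadjusted p under 0.05 was reached by 8 members (22.2%, beside 20.7% of all genes). Of these, 3 were higher in dCAMP-treated cells (CTNNB1, WNT5A and SFRP1) and 5 lower (FZD9, WNT10A, FZD5, AXIN1 and DVL3). These shares, 8.33% higher and 13.9% lower, lie beside 6.81% and 13.9% of all genes tested, so the members reached that level about as often as genes at large. The median log2 fold change was -0.11 over the 36 members and 0.03 over all genes tested, with 14 members above 0 and 22 below. A fold change is always that of dCAMP over gas.

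**Figure D2:**
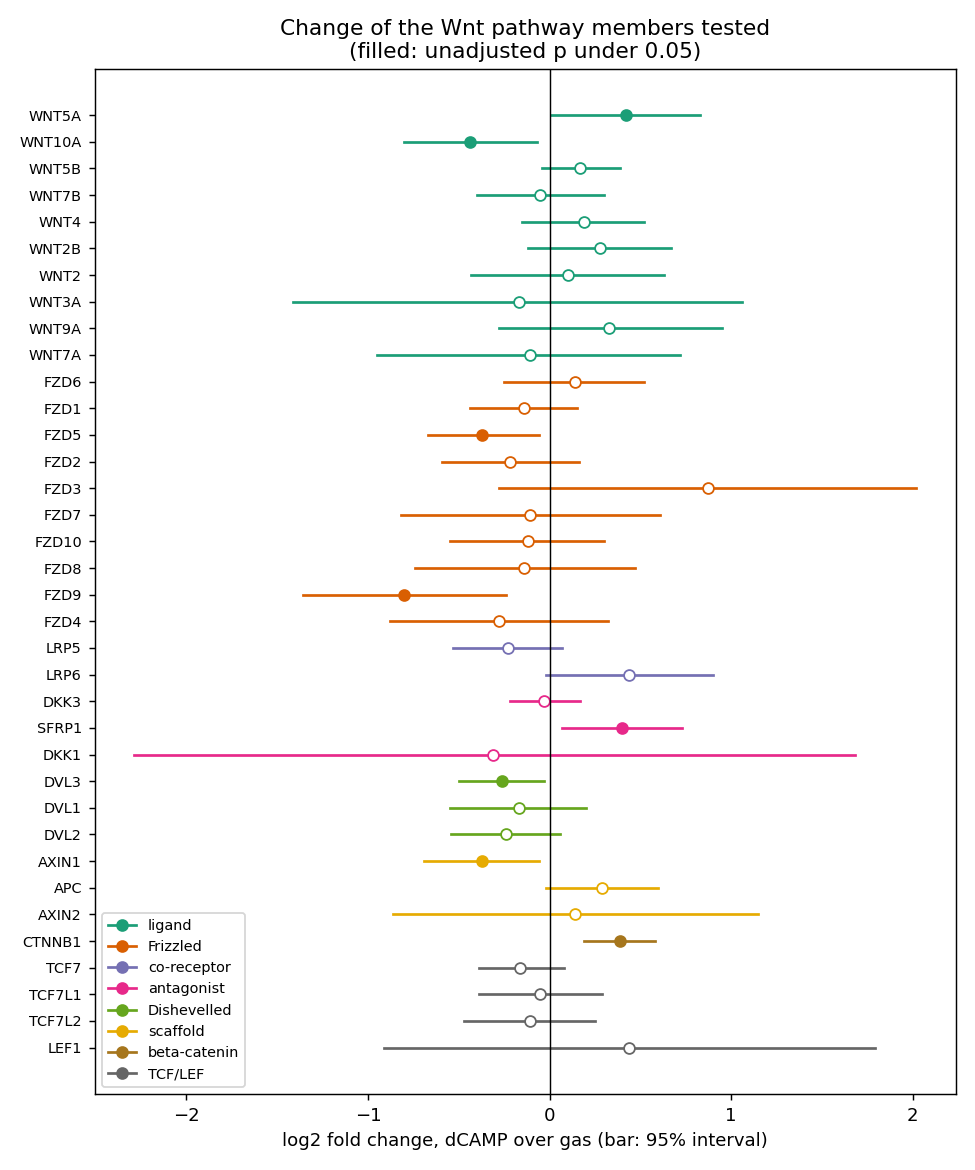
Log2 fold change of dCAMP over gas (x axis) with its 95% interval for each of the 36 members tested, in the order of their roles; filled points have an unadjusted p under 0.05. The 8 filled points are WNT5A, WNT10A, FZD5, FZD9, SFRP1, DVL3, AXIN1 and CTNNB1, with values from -0.80 to 0.42.

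CTNNB1, which encodes beta-catenin, had the smallest p of the members. Its expression was 668, 707 and 774 CPM in gas libraries 1, 2 and 3 and 950, 897 and 958 CPM in the dCAMP libraries. All dCAMP libraries were thus above all gas libraries, and the gap between the groups was wider than the range within either. The means were 716 ± 53.4 CPM (SD, n = 3) and 935 ± 33.1 CPM (SD, n = 3), a ratio of 1.31. The log2 fold change was 0.39 (standard error 0.08, 95% interval 0.19 to 0.58), with an adjusted p of 0.221 in edgeR, and 103 of the genes tested had a smaller unadjusted p. It changed little with the libraries used: without 1 library at a time it was 0.32 to 0.40. The gene (gene ID 477032) lies on chromosome 23, 10559722 to 10572933 of CanFam3.1, and no other gene of the table overlaps it. The adjusted p was 0.027 when DESeq2 was run on every gene that had a count, and between 0.0002 and 0.502 over 18 alternatives. In these bulk libraries, a different mix of cells and a different amount of RNA per cell cannot be told apart.

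Among the ligands, WNT5A was the most abundant by FPKM in every library, followed by WNT10A. WNT5A, best known for signaling without beta-catenin in cell movement and polarity, took 37.8%, 38.2% and 45.2% of the summed FPKM of the 19 ligands in gas libraries 1, 2 and 3. Its share was 45.9%, 43.6% and 47.9% in the dCAMP libraries, so gas 3 lay within the dCAMP range. Its expression was 115, 144 and 183 CPM in the gas libraries and 195, 190 and 206 CPM in the dCAMP libraries. The groups did not overlap, but gas 3 was much nearer to the dCAMP libraries than gas 1. The log2 fold change was 0.42 (standard error 0.17, adjusted p = 0.24 in edgeR). It was 0.25 without gas 1 and 0.56 without gas 3. After correction for gene length it was 0.23, and on log2 FPKM 0.19, both with an unadjusted p above 0.05.

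WNT10A, a ligand of the beta-catenin branch that is mutated in ectodermal dysplasias of skin, hair and teeth, lay in the opposite direction. It had 53.1, 50.5 and 38.3 CPM in the gas libraries and 33.5, 38.1 and 33.2 CPM in the dCAMP libraries. Gas 3 exceeded dCAMP 2 by a very small margin, so the groups were separate only just. By FPKM they overlapped, with 15.2 in gas 3 and 15.3 in dCAMP 2. The log2 fold change was -0.44 (standard error 0.15, adjusted p = 0.224 in edgeR), and -0.37 without gas 1 and -0.62 without gas 3. Its locus (gene ID 488528, chromosome 37, 25463064 to 25475407) overlaps that of LOC111094359. WNT6, its neighbor on that chromosome, had only 0 to 23 counts per library.

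The next ligands in order of FPKM were WNT5B and WNT7B, with means of 11.9 and 7.76 FPKM. WNT5B, the close relative of WNT5A, had 61.7, 61 and 62.4 CPM in gas and 66.4, 75.3 and 67.2 CPM in dCAMP. It was steady among the gas libraries and higher in each dCAMP library, and the log2 fold change of 0.17 had a standard error of 0.09 (adjusted p = 0.282). After correction for gene length it was -0.02. WNT7B, which signals through beta-catenin, had a log2 fold change of -0.05 (95% interval -0.40 to 0.30) and overlapping groups. WNT2B, at 0.4 FPKM, had 53, 51 and 58 counts in gas and 59, 54 and 62 in dCAMP, and after normalization its groups did not overlap either (1.07 ± 0.0906 against 1.3 ± 0.0614 CPM, SD, n = 3 each). Its log2 fold change of 0.28 had a 95% interval of -0.12 to 0.67. WNT2, WNT3A, WNT4, WNT7A and WNT9A, with means of 0.12 to 0.697 FPKM, had overlapping groups and log2 fold changes of -0.17 to 0.33.

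All 10 Frizzled receptors were expressed above the filter, and 8 of them had a log2 fold change below 0. FZD6, which acts in planar cell polarity and the orientation of hairs, held most of the family's expression, with 64.5% of its summed FPKM in gas 1 and 72.5% to 77.2% in the other 5 libraries. It had 106, 144 and 162 CPM in the gas libraries and 146, 158 and 148 CPM in the dCAMP libraries. Only gas 1 stood apart, and the log2 fold change of 0.14 (95% interval -0.25 to 0.52) became -0.04 without it. FZD1, the receptor of second rank, had 24.3, 24.1 and 20.9 CPM in gas and 18.8, 22.8 and 21.2 CPM in dCAMP, with overlapping groups and a log2 fold change of -0.14 (standard error 0.12).

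FZD5 and FZD9 were the Frizzled receptors with an unadjusted p under 0.05. FZD5 had 17.3, 16.3 and 13.6 CPM in gas and 12.6, 12.3 and 11.7 CPM in dCAMP. Each dCAMP library was below each gas library, and the log2 fold change was -0.37 (standard error 0.13, adjusted p = 0.224 in edgeR), -0.31 without gas 1 and -0.51 without gas 3. FZD9 was rare, with 35, 31 and 43 counts in gas and 16, 17 and 20 in dCAMP, or 0.719 ± 0.116 and 0.395 ± 0.0487 CPM (SD, n = 3 each). It showed the lowest log2 fold change of the members tested, -0.80 (standard error 0.23, adjusted p = 0.221). Leaving out 1 library at a time gave -0.94 to -0.72, and all 18 alternatives together gave -0.94 to -0.16. For FZD9, unlike most other members, gas 3 was the gas library farthest from the dCAMP libraries.

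FZD3, a receptor used in planar cell polarity and axon guidance, varied widely among the gas libraries. It had 2.25, 6.76 and 9.86 CPM in gas libraries 1, 2 and 3 and 12.4, 10.7 and 11.5 CPM in the dCAMP libraries. The groups did not overlap, yet the difference between gas 1 and gas 3 exceeded that between gas 3 and any dCAMP library. The log2 fold change of 0.87 was the highest of the members tested, but its standard error was 0.48 (adjusted p = 0.296 in edgeR), and it was 0.46 without gas 1 and 1.30 without gas 3. The other 5 Frizzled receptors, FZD2, FZD4, FZD7, FZD8 and FZD10, had overlapping groups and log2 fold changes of -0.28 to -0.11.

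The co-receptors LRP5 and LRP6, which pass the ligand signal to the AXIN complex, lay on opposite sides of 0. LRP5 had 29.3, 25.5 and 22.6 CPM in gas and 22.3, 21.3 and 22.5 CPM in dCAMP. LRP6 had 19.7, 22.7 and 32.1 CPM in gas and 32.9, 33.6 and 34.5 CPM in dCAMP. In neither gene did the groups overlap by CPM, and in both gas 3 was close to the dCAMP libraries. For LRP5 the groups overlapped in FPKM, with 3.68 in gas 3 and 3.71 in dCAMP 3. By FPKM, LRP5 made up 73.8%, 68.1% and 57.1% of the pair in gas, beside 56.2%, 54.6% and 55.3% in dCAMP. The log2 fold change was -0.23 for LRP5 (standard error 0.12, adjusted p = 0.295) and 0.44 for LRP6 (standard error 0.19, adjusted p = 0.247). These were -0.15 and 0.28 without gas 1, and -0.36 and 0.62 without gas 3. Correction for gene length moved them to -0.45 and 0.19. The locus of LRP6 overlaps that of LOC111092852.

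Of the secreted antagonists, DKK3 and SFRP1 were expressed and the rest were rare or without counts. DKK3, a divergent Dickkopf protein, had 88.4, 82.1 and 83.9 CPM in gas and 83.8, 85 and 80.8 CPM in dCAMP. Its groups overlapped, and the 95% interval of its log2 fold change, -0.22 to 0.17, was the narrowest beside that of CTNNB1. SFRP1, which binds Wnt ligands outside the cell, had 19.4, 23.5 and 22.6 CPM in gas and 30.3, 24.9 and 31.3 CPM in dCAMP. The groups were separate, with dCAMP 2 nearest to the gas libraries. Its log2 fold change was 0.40 (standard error 0.14, adjusted p = 0.223 in edgeR), 0.31 to 0.47 without 1 library at a time and 0.24 after correction for gene length. DKK1, an inhibitor of LRP5 and LRP6 and itself a known Wnt target, had 17, 8 and 15 counts in gas and 21, 7 and 0 in dCAMP, a spread too wide to show a difference (95% interval of the log2 fold change -2.29 to 1.68).

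The Dishevelled proteins carry the signal from Frizzled to the AXIN complex, and all 3 genes had log2 fold changes below 0. DVL3, the most abundant, had 119, 115 and 100 CPM in gas and 94.7, 88.8 and 95.6 CPM in dCAMP. The dCAMP libraries were below all gas libraries, and the log2 fold change was -0.26 (standard error 0.10, adjusted p = 0.23 in edgeR). It was -0.38 without gas 3, and -0.38 to -0.23 without 1 library at a time. DVL1 had 60.1, 50.2 and 40.9 CPM in gas and 45.9, 42 and 46.3 CPM in dCAMP. There gas 3 was the lowest of the 6 libraries, and the log2 fold change of -0.17 became -0.05 without gas 1. DVL2 had 32.1, 26.4 and 25.5 CPM in gas and 22.5, 23.6 and 25.1 CPM in dCAMP, groups that did not overlap by a narrow margin, with a log2 fold change of -0.24 (standard error 0.13).

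AXIN1 and APC, the scaffolds on which beta-catenin is marked for destruction, had opposite signs. The AXIN1 gene (gene ID 490099) is on chromosome 6, 40155797 to 40218330. Its level was 66.9, 61.2 and 50.6 CPM in gas and 46.6, 48.5 and 42.9 CPM in dCAMP. Each dCAMP library was lower than each gas library by CPM. By FPKM the groups overlapped, with 12.2 in gas 3 and 12.5 in dCAMP 2. The log2 fold change was -0.37 (standard error 0.13, adjusted p = 0.224 in edgeR), -0.30 without gas 1 and -0.52 without gas 3. APC had 69.5, 77.8 and 95 CPM in gas and 95.3, 100 and 101 CPM in dCAMP. Gas 3 and dCAMP 1 were almost equal, and the log2 fold change was 0.29 (standard error 0.13, adjusted p = 0.254), 0.18 without gas 1 and 0.02 after correction for gene length. The locus of APC overlaps that of LOC111094959.

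AXIN2 and LEF1, known target genes of the pathway, were rare and did not differ detectably in edgeR. AXIN2, which the beta-catenin branch induces as its own brake, had only 34, 12 and 21 counts in gas and 19, 25 and 23 in dCAMP. LEF1, a transcription factor and target, had 10, 7 and 22 counts in gas and 6, 23 and 19 in dCAMP. The groups overlapped in both genes, and the 95% intervals of the log2 fold changes, -0.86 to 1.15 for AXIN2 and -0.91 to 1.79 for LEF1, include a 2-fold change in the upward direction. For AXIN2, gas 1 was the highest library and gas 2 the lowest, and the log2 fold change of 0.14 was 0.60 without gas 1 and -0.19 without gas 2. With sample quality weights in voom it was 1.01 (adjusted p = 0.00696), in a range of adjusted p from 0.00696 to 0.998 over its alternatives.

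TCF7, which is also a known target of the pathway, was the most abundant TCF/LEF factor. It held 67.6% to 71.2% of the summed FPKM of the 4 genes in every library. It had 57.1, 52.4 and 49.1 CPM in gas and 46.7, 47 and 48.8 CPM in dCAMP. The groups did not overlap by CPM, although gas 3 and dCAMP 3 were close. By FPKM they overlapped, with 11.6 in gas 3 and 11.7 in dCAMP 3. The log2 fold change was -0.16 (standard error 0.10, adjusted p = 0.329). TCF7L1, which mainly acts as a repressor and is known from epidermal stem cells, had 8.04, 8.09 and 6.86 CPM in gas and 7.9, 6.37 and 7.95 CPM in dCAMP, with overlapping groups. Its log2 fold change was -0.05 (95% interval -0.39 to 0.29), and that of TCF7L2, the remaining factor, was -0.11 (95% interval -0.47 to 0.25).

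In all, the gas and dCAMP libraries did not overlap in CPM for 16 of the 36 members, 8 higher and 8 lower in dCAMP-treated cells. Over all genes tested, 19.0% were separate in CPM with dCAMP higher and 20.9% with dCAMP lower, beside 22.2% of the members in each direction. In FPKM the groups of WNT10A, LRP5, AXIN1 and TCF7, all among the lower members, did overlap. In 13 of these 16 members, gas 3 was the gas library nearest to the dCAMP libraries, and in 13 gas 1 was the farthest. The same held for 85.3% and 84.7% of the 5868 separate genes in the whole table, so this order of the gas libraries was shared with genes at large.

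**Figure D3:**
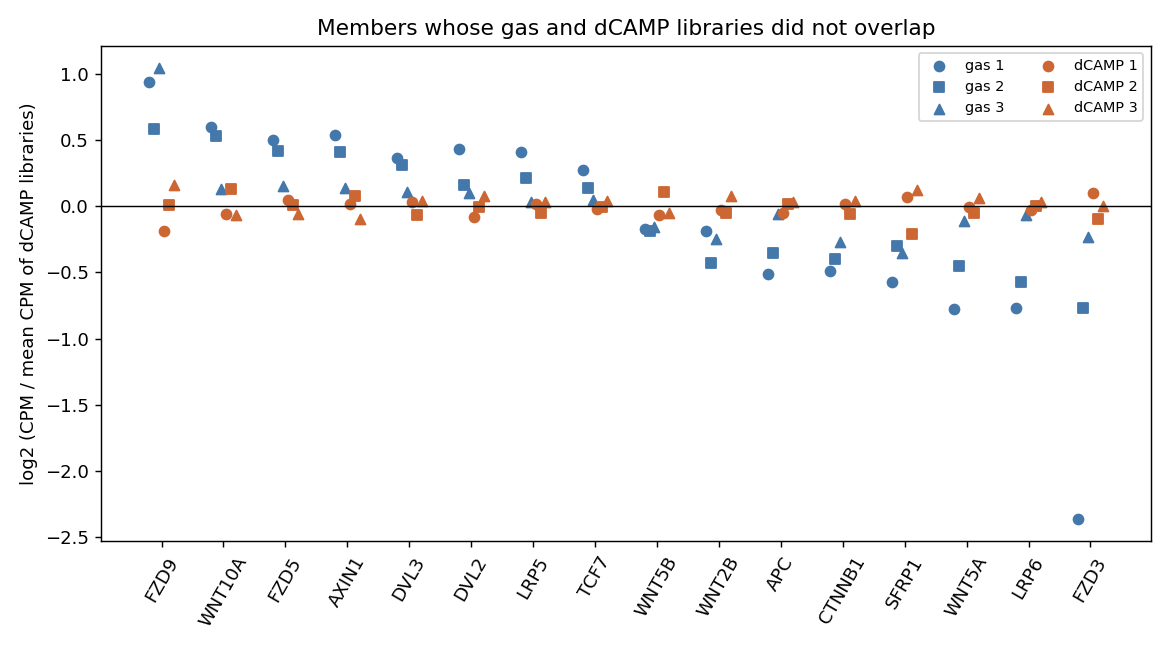
Log2 ratio of each library's CPM to the mean CPM of the dCAMP libraries (y axis) for the 16 members whose groups did not overlap, ordered by fold change; blue marks are gas and orange marks dCAMP libraries. Gas 3 (blue triangles) lies next to the dCAMP libraries for LRP5, LRP6, APC and TCF7, while for FZD9 it lies farthest from them.

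Leaving out gas 3 changed the calls. In edgeR, 9 of 39 members then had an adjusted p under 0.05, beside 33.1% of all genes tested. Of these, 4 were higher (CTNNB1, WNT5A, LRP6 and APC, with 15.0% of all genes higher) and 5 were lower (WNT10A, FZD5, LRP5, DVL3 and AXIN1, with 18.1% of all genes lower). The members were thus called at a share of 23.1%, below that of the whole table. LRP5 was only just past the threshold, with an adjusted p that rounds to 0.05 in edgeR. FZD3 then met the 2-fold rule, as did 9.84% of all genes in the upward direction. Without gas 1, no member had an adjusted p under 0.05 in edgeR (0.00667% of all genes did), and 4 were higher and 5 lower by unadjusted p, beside 8.75% and 11.8% of all genes. By the same rule, omitting gas 3 gave 6 higher and 10 lower, beside 23.8% and 25.5%. Omitting any of the remaining libraries left few members at that level. There were 2 higher and 1 lower without gas 2 (2.43% and 5.82% of all genes), 1 and 0 without dCAMP 1 (2.48% and 5.75%), 2 and 2 without dCAMP 2 (3.04% and 6.57%) and 1 and 1 without dCAMP 3 (2.16% and 4.7%). With sample quality weights in voom, 20 of 36 members had an adjusted p under 0.05 (55.6%, beside 60.8% of all genes).

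**Figure D4:**
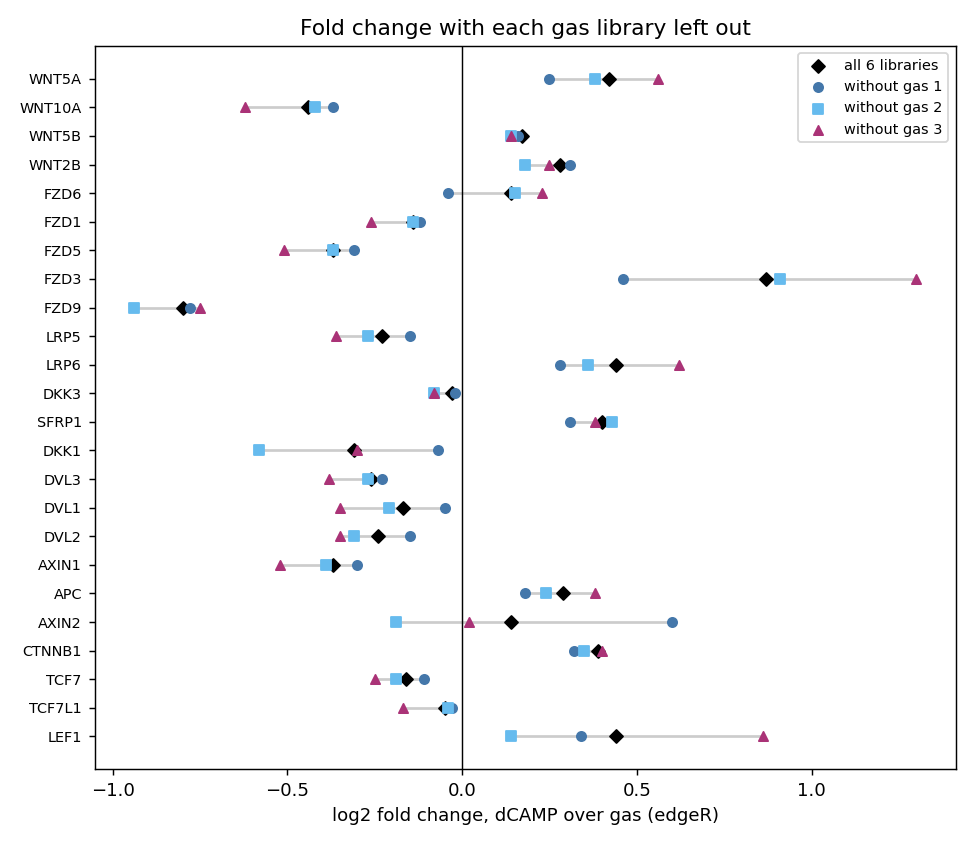
Log2 fold change of dCAMP over gas in edgeR (x axis) for the 24 members described individually, with all 6 libraries (black) and with gas 1, gas 2 or gas 3 left out. CTNNB1 stays between 0.32 and 0.40, whereas FZD3 moves from 0.46 without gas 1 to 1.30 without gas 3, and AXIN2 and FZD6 change sign.

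The transcript table showed which known transcript carried each gene's counts. Of the 36 members tested, 21 had 1 transcript in the table and 15 had several. In 9 of the 15 the same transcript led in all libraries with counts, and in the other 6 (AXIN1, DVL2, DVL3, FZD3, TCF7L2 and WNT7B) it did not. Transcripts of a gene share most of their sequence, so the split is an estimate, and no test was made on it. For CTNNB1, the 3463-base transcript held 66.4%, 77.4% and 79% of the counts in gas 1, 2 and 3, beside 81.8%, 80.2% and 81.6% in dCAMP 1, 2 and 3. A shorter transcript of 3169 bases held 22.8%, 12.2% and 8.3% in gas and 6.89%, 6.96% and 7.34% in dCAMP. For both transcripts the groups did not overlap, and gas 1 was farthest from the dCAMP libraries.

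A similar split was seen in WNT5A and DVL3. The 1332-base transcript of WNT5A, the shorter of the pair with counts, had 762, 430 and 94 counts in gas and 55, 65 and 74 in dCAMP, which was 14.3%, 5.67% and 0.968% of the gene's counts in gas and 0.607% to 0.797% in dCAMP. The 5751-base transcript held the rest. For DVL3, the 2321-base transcript held 63.2% of the counts in gas 1 and 28.7% to 37.2% in the other 5 libraries, where the 3782-base transcript led. For these genes the shorter form therefore took its highest share in gas 1. In FZD3, transcripts of 5990 and 5992 bases exchanged the lead between libraries, with 98.1% for the first in gas 3 and 0% in gas 2. LEF1 had counts on 1 of its 12 listed transcripts.

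**Figure D5:**
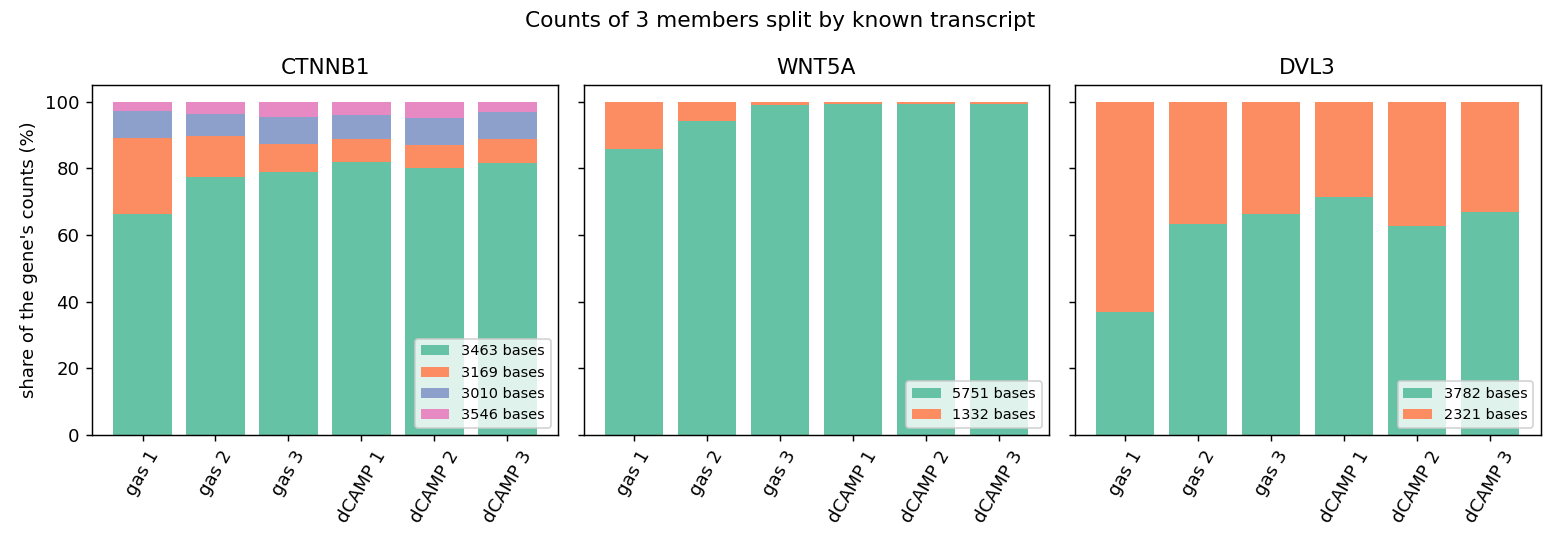
Share of each gene's counts (y axis, percent) given to each known transcript with counts, for CTNNB1, WNT5A and DVL3 in the 6 libraries; colors mark transcripts by length. In gas 1 the 3169-base form of CTNNB1 (22.8%), the 1332-base form of WNT5A (14.3%) and the 2321-base form of DVL3 (63.2%) have their highest shares.

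Other genes of the pathway were taken from lists by role, not by how they moved. The table held 60 of the 62 genes listed, and 47 passed the filter. None had an adjusted p under 0.05 in edgeR. An unadjusted p under 0.05 was reached by 3 upward (6.38%) and 11 downward (23.4%), beside 6.81% and 13.9% of all genes tested, and the median log2 fold change was -0.09. A log2 fold change below 0 was found for 30 of the 47, beside 7002 of all 14708 genes, and the counts per list below have these shares as their background. PYGO1 was the gene with at least a 2-fold change. This partner of BCL9 at beta-catenin had 1.04, 1.58 and 2.88 CPM in gas and 4.45, 4.55 and 5.29 CPM in dCAMP. All dCAMP libraries were above all gas libraries, and the log2 fold change was 1.35 (standard error 0.36, adjusted p = 0.221 in edgeR), 1.07 without gas 1 and 1.78 without gas 3. Its adjusted p was 0.0354 when DESeq2 was run on every gene that had a count, and between 0.0002 and 0.502 over the alternatives.

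Of the 11 co-activators and co-repressors tested, 9 had a log2 fold change below 0, from -0.38 to -0.01, and BCL9L, PYGO2 and TLE2 had an unadjusted p under 0.05 there. BCL9L, which links beta-catenin to the Pygopus proteins, had 113, 104 and 95.2 CPM in gas and 77.2, 80.6 and 82.1 CPM in dCAMP. Its log2 fold change was -0.38 (standard error 0.10, adjusted p = 0.221), while that of TLE2, a Groucho co-repressor, was -0.30 (standard error 0.11).

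On the list for the destruction complex, 7 of 11 genes had a log2 fold change above 0 and 4 below. These genes, TNKS and TNKS2 among them, do not all act in the same direction on the complex. GSK3A, CSNK1E, CSNK1D and APC2 had an unadjusted p under 0.05 with lower values, and TNKS2 with higher values. GSK3A, 1 of the kinases that phosphorylate beta-catenin, had 104, 89.9 and 82.3 CPM in gas and 71.2, 71.8 and 63.8 CPM in dCAMP. The groups did not overlap, and the log2 fold change was -0.42 (standard error 0.12, adjusted p = 0.221 in edgeR). Its paralog GSK3B had 41.7, 62.6 and 78.7 CPM in gas and 76.5, 78.6 and 81.2 CPM in dCAMP. There gas 3 lay within the dCAMP range and the log2 fold change was 0.37 (standard error 0.22). The log2 fold changes of the casein kinases CSNK1E and CSNK1D were -0.38 (standard error 0.11) and -0.29 (standard error 0.09). CSNK1A1, the third casein kinase of the list, was on the other side of 0, with 272, 450 and 640 CPM in gas and 647, 653 and 665 CPM in dCAMP and a log2 fold change of 0.53 (standard error 0.29).

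Among the genes of planar cell polarity, SCRIB, CELSR3 and CELSR1 had an unadjusted p under 0.05, all with lower values, and 6 of 8 genes tested had a log2 fold change below 0. SCRIB, a polarity scaffold of epithelial cells, had 342, 304 and 269 CPM in gas and 239, 234 and 229 CPM in dCAMP. Its log2 fold change was -0.38 (standard error 0.10, adjusted p = 0.221), and those of the atypical cadherins CELSR3 and CELSR1 were -0.36 (standard error 0.12) and -0.33 (standard error 0.11). DAAM1 and PRICKLE2 had the opposite sign, at 0.51 (standard error 0.22) and 0.24 (standard error 0.10), and their dCAMP libraries were all above their gas libraries. PORCN, WLS and NOTUM, listed together as genes that act on the ligands, all had log2 fold changes below 0. They do not all act in the same direction, since NOTUM opposes the ligands. What the lower values meant for secretion was not tested. NOTUM is also listed as a target gene and is described below. PORCN, the acyltransferase that Wnt ligands need before secretion, had -0.30 (standard error 0.12, adjusted p = 0.24), and WLS, their carrier to the cell surface, had -0.15 (standard error 0.08).

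The R-spondins, which strengthen Wnt signals, were without counts for RSPO1, RSPO3 and RSPO4, and RSPO2 had 0 to 0.151 CPM. Of their receptors, LGR5 had no count, LGR4 had 58.5, 70.2 and 106 CPM in gas and 98.7, 108 and 107 CPM in dCAMP, and LGR6 had 6.77 to 10.9 CPM. LGR4 thus had overlapping groups, with gas 3 beside the dCAMP libraries, and a log2 fold change of 0.42 (standard error 0.22). The ubiquitin ligases RNF43 and ZNRF3, which remove Frizzled from the membrane and are Wnt targets, had log2 fold changes of -0.09 and -0.06 (standard error 0.12 each). None of the 4 alternative receptors ROR1, ROR2, RYK and PTK7 had an unadjusted p under 0.05. Inhibitors without a DKK or SFRP symbol numbered 8, among them FRZB, which belongs to the SFRP family. Of these inhibitors, 4 were tested, 2 with log2 fold changes above 0 and 2 below. SOSTDC1, 1 of these, had 19.1, 29.3 and 38.2 CPM in gas and 42.2, 40.5 and 45 CPM in dCAMP. The groups did not overlap, and its log2 fold change was 0.56 (standard error 0.24, adjusted p = 0.25 in edgeR).

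Of the 10 target genes outside the members, 6 were tested, 2 with a log2 fold change above 0 and 4 below (median -0.07). Only APCDD1 had an unadjusted p under 0.05. APCDD1, a membrane inhibitor of Wnt signaling in hair follicles, had 2.31, 1.5 and 1.36 CPM in gas and 2.42, 3.2 and 2.86 CPM in dCAMP. The groups did not overlap, with gas 1 almost at the level of dCAMP 1, and the log2 fold change was 0.70 (standard error 0.24, adjusted p = 0.224 in edgeR). It was 0.94 without gas 1 and 0.51 without gas 3. NOTUM, another target, had 5.55, 4.46 and 4.41 CPM in gas and 4.34, 3.17 and 3.74 CPM in dCAMP. Its groups did not overlap, and the log2 fold change was -0.35 (standard error 0.17, adjusted p = 0.265 in edgeR). The targets MYC and CCND1 had log2 fold changes of -0.27 (standard error 0.14) and 0.04 (standard error 0.11), while SP5 and NKD2 had no count in any library.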

How the data were processed

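RNA-Seq libraries (TruSeq stranded mRNA) were made from CPEK cells of the gas control (n = 3) and the dCAMP group (n = 3). The authors trimmed the reads with Trimmomatic 0.38 after FastQC 0.11.7, mapped them to CanFam3.1 with HISAT2 2.1.0 and summarized known transcripts with StringTie 2.1.3b. The deposited counts are whole numbers per gene or per transcript without normalization, and the deposited FPKM values were scaled by the authors to mapped reads and length. Another 18 columns of values (TPM, and FPKM per transcript) were not used. The annotation release and the handling of overlapping genes are not given in the sources used here, and 10 of the 36 members tested overlap another gene.

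The gene counts were tested in R 4.3.3 with edgeR 4.0.16 (DESeq2 1.42.0 and limma 3.58.1 served the alternatives): TMM factors, filterByExpr (14708 genes), a prior count of 2 and the quasi-likelihood test of all 6 libraries, with Benjamini-Hochberg adjustment over all genes tested. The study's methods used DESeq2, which was run as an alternative. A standard error is the log2 fold change over the square root of F. CPM values are counts over the TMM-scaled library size. Alternatives were other factors, other filters, DESeq2, voom with sample quality weights, limma on log2 FPKM plus 1 or 0.1, the replicate number as a block, gene length correction (lowess, span 0.3, in each library, with lengths from the counts and FPKM) and leaving out each library. The steps were tested on simulated data.

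The labels do not say whether replicates were separate cultures, so p-values measure only the spread between these libraries. No set test was made. A count of 0 allows up to 3 counts, for counting error only. The members and lists were chosen with earlier results of these data known. Described individually were members with an unadjusted p under 0.05, the 2 most abundant of each role, AXIN2, LEF1, TCF7 and DKK1, and members whose groups did not overlap. Of the other pathway genes, up to 3 per list with an unadjusted p under 0.05 were described by that rule. PYGO2, TNKS2 and APC2, which lie beyond that limit, and GSK3B, CSNK1A1, DAAM1, PRICKLE2, WLS, NOTUM, SOSTDC1, LGR4, LGR6, RSPO2, RNF43, ZNRF3, MYC and CCND1 were added after their values were seen. The gene IDs of all 50 members were found in the RefSeq table of UU_Cfam_GSD_1.0 with the same symbols; coordinates were taken from the transcript table. No sequences are shown, since none were in the tables used here.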

Additional observations from a re-analysis of the deposited data

How the results depend on the processing

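Under 18 alternatives no value past a threshold in edgeR with all 6 libraries changed sign, and the cause of each move below was not tested. WNT5B, FZD6, DKK3, DKK1, AXIN2 and TCF7L1, which were not past one there, changed sign in 1 to 3 alternatives each, and WNT5B and AXIN2 had an adjusted p under 0.05 in voom. When 1 library at a time was omitted, an adjusted p under 0.05 was found for 0 to 4 members higher and 0 to 5 lower, and for 0 to 8 and 0 to 14 of the other pathway genes. For an unadjusted p under 0.05 these ranges were 1 to 6 and 0 to 10 for the members, and 1 to 11 and 3 to 18 for the other genes. With the 2-fold rule 0 to 1 member was higher (FZD3 without gas 3). The median of the members ranged from -0.20 to -0.03 and was -0.19 with upper-quartile factors.

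Sample quality weights in voom gave by far the most calls. An adjusted p under 0.05 was then found for 9 members higher and 11 lower, 55.6% of those tested beside 60.8% of all genes. An unadjusted p under 0.05 was found for 9 and 12, and the 2-fold rule was met by 1 member. For the other pathway genes voom called 15 higher and 16 lower by adjusted p, and 16 and 18 by unadjusted p. DESeq2 on all genes with a count gave 1 member (CTNNB1) and 1 other gene (PYGO1) an adjusted p under 0.05, both higher, and DESeq2 on genes counted in every library gave 1 other gene. By unadjusted p, these had 6 and 5 other genes higher. Log2 FPKM had 6 other genes higher with either pseudocount, and with a pseudocount of 1 it had 7 lower and 0 past the 2-fold rule. The length correction left 1 member higher by unadjusted p, with or without the block, and 17 other genes lower.

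Same-numbered gas and dCAMP libraries deviated together only weakly, with r of 0.13, 0.024 and 0.048 across genes for numbers 1, 2 and 3, so the numbers were not taken to pair the libraries. With the replicate number as a block, 3 members were higher and 4 lower by unadjusted p, beside 4 and 9 of the other genes, and no adjusted p fell under 0.05. In the deviations from the group means, gas 3 correlated best with dCAMP 2, with r of only 0.087. Depth limits the rare members, such as AXIN2, LEF1, DKK1 and FZD9, with 0 to 43 counts per library.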
